A study of Homo sapiens with 6 samples.

Results

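The genes described are those of the 5 NF-kB subunits (NFKB1, NFKB2, REL, RELA and RELB), the cytoplasmic inhibitors NFKBIA, NFKBIB and NFKBIE, the nuclear IkB-like factor NFKBIZ, and TNFAIP3, which encodes the ubiquitin-editing enzyme A20. They were chosen by name, with earlier results of these data known, so their counts beside all genes tested are a description. Each of the 10 symbols matched a single row among the 58233 Ensembl rows of the deposited tables. RNA sequencing had been carried out on the human bladder carcinoma cell line T24. Cells with a stable lentiviral insert for the constitutively active RhoC mutant Q63E (3 libraries) were compared with cells carrying the vector, VEC (3 libraries), and both populations had been selected with puromycin. RhoC is a small GTPase that acts on the actin cytoskeleton, and the design asks which transcripts differ when its active form is overexpressed. The labels do not say whether the 3 libraries of a group came from separate cultures or from a single transduced population, so the tests are set against a spread that could be technical only.

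NF-kB is a dimeric transcription factor. In resting cells IkB proteins hold the dimers in the cytoplasm; cytokines such as TNF and IL-1 activate IkB kinases, the IkB protein is degraded, and the dimer enters the nucleus. The canonical arm uses mainly RELA with p50, the processed product of NFKB1. The non-canonical arm runs through the kinase NIK (MAP3K14), the processing of the NFKB2 precursor p100 to p52, and RELB. Several genes of the pathway, among them NFKBIA, TNFAIP3, RELB and NFKB2, are themselves known NF-kB targets, so their transcripts form feedback loops. In bladder carcinoma cells the pathway is known for its control of inflammatory chemokines and survival genes.

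Of the 10 genes, 8 were lower in Q63E and 0 were higher. The exceptions were REL and NFKBIB. The largest fall was that of RELB, at 0.539 times its VEC level, and the smallest that of RELA, at 0.883 times. The call rule was an adjusted p of at most 0.05 in limma on log2(FPKM + 1), adjusted over all 13346 genes with a mean of at least 1 FPKM. By the same rule 14.0% of all genes tested were lower and 11.3% were higher. The median log2 difference, Q63E minus VEC, was −0.49 over the 10 genes and −0.00233 over all genes tested. For the same 8 genes all 3 Q63E libraries lay below all 3 VEC libraries, which held for 22.8% of all genes tested.

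RHOC, the overexpressed gene, had 1770, 1726 and 1744 FPKM in Q63E libraries, against 232, 218 and 232 FPKM in VEC libraries, in the direction of the labels. Summed FPKM ran from 726929 to 741778 in Q63E and from 746175 to 769026 in VEC, and log2 values correlated across genes at r = 0.968 to 0.976 within a group. Depth is unknown, since the files give no counts. Of 18 epithelial and urothelial markers, 8 could be tested, with 5 higher and 0 lower in Q63E. The shares over all genes tested were 11.3% higher and 14.0% lower. KRT7, KRT8 and KRT18 were abundant, while CDH1, KRT5 and UPK3A were listed at 0 in all 6 libraries. NF-kB genes are also expressed by leukocytes. The 7 leukocyte markers summed to 9.80 to 11.4 FPKM in Q63E and 18.05 to 20.04 FPKM in VEC, nearly all of it CD68, while PTPRC and CD3E were listed at 0 in all 6 libraries. In bulk RNA, fewer cells of a type and less RNA per cell cannot be told apart.

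**Figure D1:**
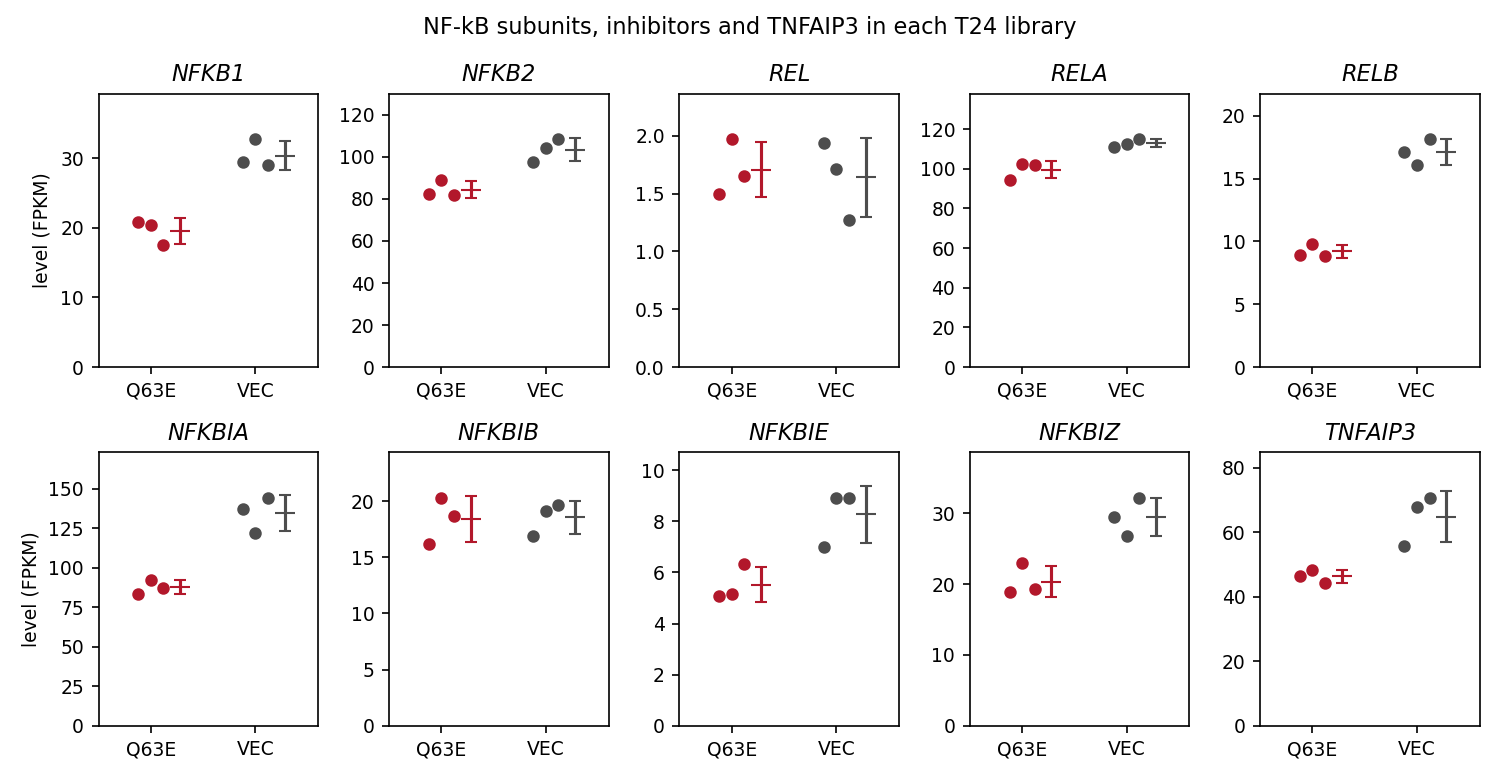
Level of each gene in FPKM, on axes that start at 0, in the 3 Q63E libraries (red, left) and the 3 VEC libraries (grey, right), with the mean and SD beside the points. Q63E lies wholly below VEC for 8 genes, while the groups overlap for REL and NFKBIB.

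Because members of the family are known to act on each other's promoters, the bases upstream of their starts were searched for NF-kB sites. The RefSeq promoter table (GRCh38.p14) held 8 of the 10 genes, with 14 start sites among them; RELB and NFKBIE were not matched. The 250 bases before each start were read on both strands against the 10-base NF-kB consensus and against the overlapping 9-base pattern GGNNTTTCC. Distances are counted from these RefSeq starts, which can differ from the GENCODE gene positions given below. The matches of NFKB2, REL, NFKBIB and TNFAIP3, and the NFKBIZ match that is not printed, lie inside the GENCODE span of the gene. A consensus match stood in at least 1 window of 7 of the 8 genes and in 9 of the 14 windows. Among all genes of that table one was held by 6.28%, and among all its windows by 5.21%, and 5.48% of windows held GGNNTTTCC. RELA had no match to either in its windows. Matches follow in the direction of the gene, with the bases that match either pattern in capitals, so that those of genes that fell can be set beside those of REL and NFKBIB; 1 further match each of NFKB2 and NFKBIZ is not printed.

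NFKB1 (chr4:102501300-102501329, plus strand): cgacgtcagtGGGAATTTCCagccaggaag
NFKB2 (chr10:102394462-102394490, plus strand): aaacgtcatGGGAATTCCCCcctccgggg
NFKB2 (chr10:102394490-102394519, plus strand): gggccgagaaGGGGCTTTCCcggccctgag
NFKB2 (chr10:102395674-102395703, plus strand): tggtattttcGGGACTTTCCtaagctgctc
REL (chr2:60881518-60881546, plus strand): gtcagccgcGGGAAATTCCCctcccgcca
NFKBIB (chr19:38899932-38899960, plus strand): ggcgtggtgGGGAATTTCCCgcagggcgg
NFKBIZ (chr3:101827757-101827786, plus strand): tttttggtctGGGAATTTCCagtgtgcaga
TNFAIP3 (chr6:137867188-137867217, plus strand): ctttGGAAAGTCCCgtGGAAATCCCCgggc

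TNFAIP3 had a pair of matches on the minus strand within the stretch, between 67 and 46 bases before its RefSeq start. The matches of REL and NFKBIB, at 47 to 37 and 28 to 18 bases before a start, were palindrome-like runs that matched on both strands. Runs matching on both strands also stood before RefSeq starts of NFKB2 (107 to 98 bases) and NFKBIZ (239 to 230 bases, not printed), which fell. On the strand of the gene the same run, GGGAATTTCC, stood before NFKB1, NFKBIB and NFKBIZ, of which NFKB1 and NFKBIZ fell and NFKBIB did not pass the test. A match in these letters therefore did not separate the genes that fell from those that did not, and it describes sequence, not binding. NFKBIA is shown whole because its window held a consensus match 81 to 72 bases before the start and a GGNNTTTCC match at 242 to 234.

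NFKBIA (chr14:35404750-35404999, minus strand): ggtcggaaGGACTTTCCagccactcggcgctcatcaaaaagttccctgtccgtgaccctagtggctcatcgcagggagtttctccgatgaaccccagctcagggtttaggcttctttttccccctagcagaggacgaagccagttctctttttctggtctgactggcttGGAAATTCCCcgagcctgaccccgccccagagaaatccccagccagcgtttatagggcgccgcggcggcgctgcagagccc

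Among the subunits, the RELA and NFKB2 transcripts were the most abundant, followed by NFKB1 and RELB, and REL was scarce. RELB, the partner of p52 in the non-canonical arm (ENSG00000104856, chr19:45001430-45038198, plus strand of GRCh38 in GENCODE release 29), had 8.96, 9.83 and 8.85 FPKM in Q63E libraries, against 17.1, 16.1 and 18.1 FPKM in VEC libraries. The groups were well apart, with the highest Q63E library at 9.83 and the lowest VEC library at 16.1 FPKM. The log2 difference was −0.82 (SE 0.073, adjusted p = 0.000656, limma), and it passed in each of the 15 alternative settings (adjusted p 0.000413 to 0.0106). The mean fell to 9.21 ± 0.537 FPKM in Q63E, against 17.1 ± 1.05 FPKM in VEC (SD, n = 3 each).

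NFKB2, the precursor of p52 (ENSG00000077150, chr10:102394110-102402529, plus strand), had 82.2, 89.1 and 81.8 FPKM in Q63E libraries, against 97.7, 104 and 108 FPKM in VEC libraries. Its fall was smaller, with a log2 difference of −0.29 (SE 0.055, adjusted p = 0.0111, limma). Relative to NFKB2, the RELB transcript stood at 0.109 ± 0.00111 in Q63E and 0.166 ± 0.0105 in VEC (SD, n = 3 each), so RELB was lower also per unit of NFKB2.

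RELA, the main activating subunit of the canonical arm (ENSG00000173039, chr11:65653596-65663094, minus strand), had 94.6, 103 and 102 FPKM in Q63E libraries, against 111, 113 and 115 FPKM in VEC libraries. The groups did not overlap, but the difference was small, −0.18 on the log2 scale (SE 0.043, adjusted p = 0.0254, limma; 95% interval −0.28 to −0.08). The call was lost without Q63E replicate 1 or 3 (adjusted p = 0.0624 and 0.0513) or VEC replicate 2 or 3 (0.0651 and 0.0826). It was also lost with quantile normalization (adjusted p = 0.0614), with no mean-variance trend (0.0683) and with the replicate number as a block (0.0577).

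NFKB1, the precursor of p50 (ENSG00000109320, chr4:102501329-102617302, plus strand), had 20.8, 20.4 and 17.5 FPKM in Q63E libraries, against 29.4, 32.7 and 29 FPKM in VEC libraries. The log2 difference was −0.61 (SE 0.083, adjusted p = 0.00326, limma), of the same size as that of NFKBIA. NFKB1 differed from the others in its surroundings. Of the 48 other tested genes within 10 Mb, 44 had a difference below 0, 30 passed as lower and 1 as higher, and their median was −0.37. With each library's neighbourhood median subtracted, the log2 difference of NFKB1 was −0.24 (SE 0.0911, adjusted p = 0.119, limma) and the call was lost. Of the 48 neighbours 6 were as low as NFKB1 or lower.

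**Figure D2:**
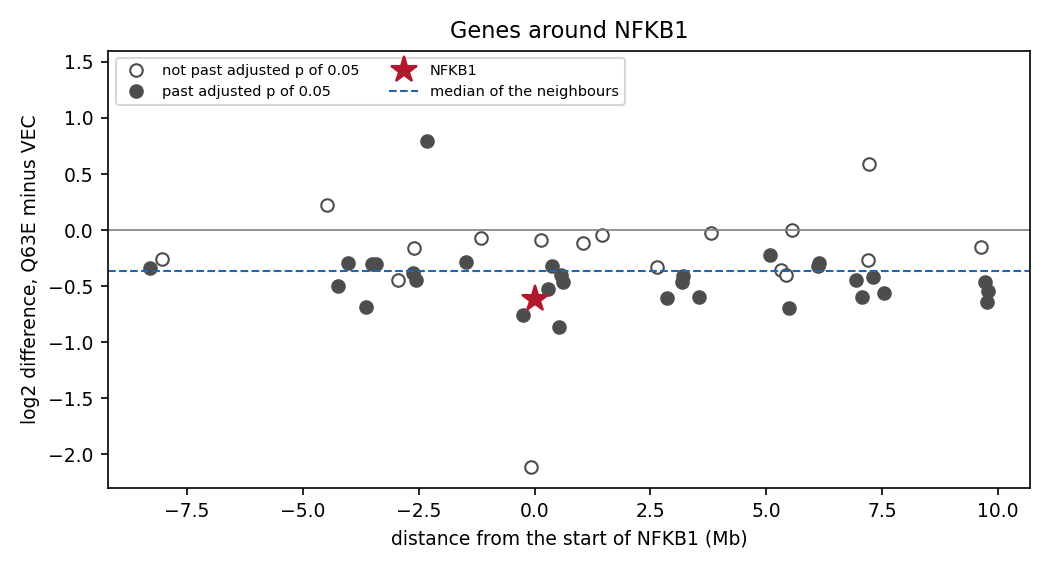
Log2 difference (Q63E minus VEC, FPKM + 1) of the 48 tested genes within 10 Mb of NFKB1, by distance from its start in Mb. Filled points passed an adjusted p of 0.05. NFKB1 (star) lies at −0.61, below the neighbours' median of −0.37 (dashed), and 44 of the neighbours lie below 0.

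For the other 9 genes the neighbourhood median differed by −0.09 (NFKBIB) to 0.12 (REL) between the groups, and the 7 other genes that fell kept their calls after the subtraction, with log2 differences of −0.74 for RELB, −0.71 for NFKBIA, −0.54 for NFKBIE and for NFKBIZ, −0.48 for TNFAIP3, −0.35 for NFKB2 and −0.18 for RELA.

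REL, the subunit best known from lymphoid cells (ENSG00000162924, chr2:60881521-60931610, plus strand), had 1.5, 1.97 and 1.65 FPKM in Q63E libraries, against 1.94, 1.71 and 1.27 FPKM in VEC libraries. The groups overlapped. The log2 difference of 0.04 (SE 0.162, adjusted p = 0.880, limma) had a 95% interval of −0.35 to 0.43, that is, 0.786-fold to 1.35-fold on the scale of FPKM + 1, so a change of the size seen for NFKB2 was not excluded. Its mean stood at percentile 7.96 among the genes tested, and a noncoding gene on the same strand, AC010733.2 (4.18 to 4.52 FPKM in Q63E and 3.62 to 4.42 in VEC), overlaps it by 5702 bases, so that reads may be shared.

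The 5 subunits summed to 214.5 ± 8.21 FPKM in Q63E and 265.4 ± 7.61 FPKM in VEC (SD, n = 3 each). RELA held 46.5% ± 1.44 of that sum in Q63E and 42.5% ± 0.532 in VEC, and NFKB2 held 39.3% ± 0.592 in Q63E and 38.9% ± 0.939 in VEC. NFKB1 held 9.12% ± 0.874 in Q63E and 11.4% ± 0.788 in VEC, and RELB held 4.29% ± 0.106 in Q63E and 6.44% ± 0.379 in VEC. The summed transcript level was therefore lower, with a larger share of RELA, whose own level was also lower, and smaller shares of NFKB1 and RELB. As given above, the NFKB1 call was lost after subtraction of its neighbourhood median. The shares are given as a description and were not tested.

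**Figure D3:**
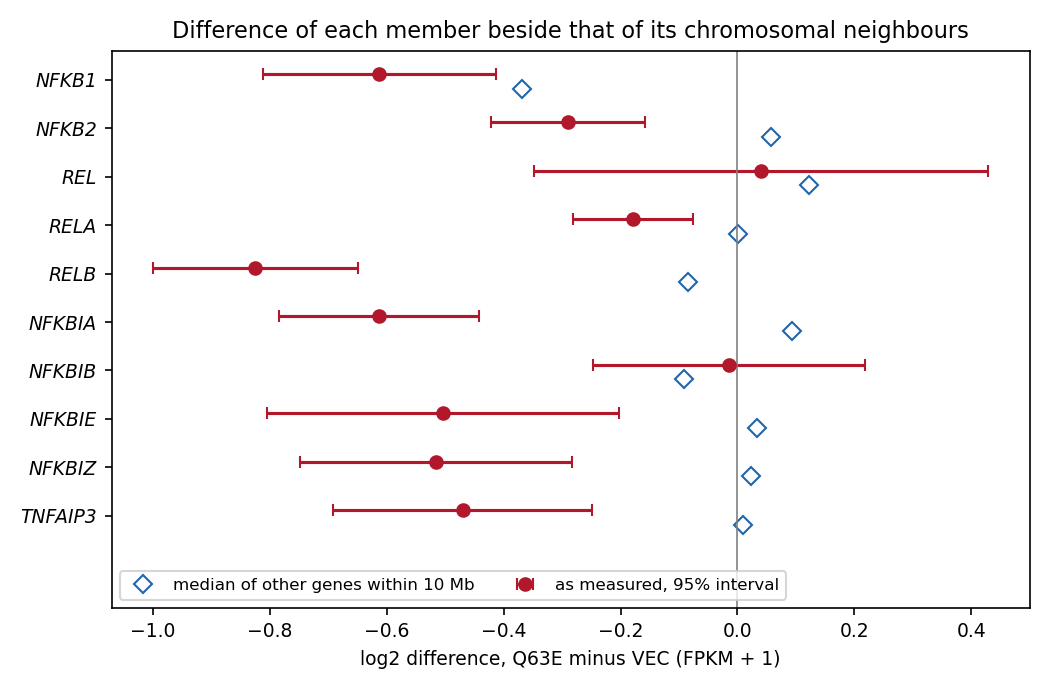
Log2 difference (Q63E minus VEC, FPKM + 1) of the 10 genes with its 95% interval from limma (red), and the difference in the median of the other tested genes within 10 Mb (blue diamonds). The intervals of 8 genes lie below 0; the neighbours' value is −0.37 for NFKB1 and between −0.09 and 0.12 for the other 9 genes.

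Of the 3 cytoplasmic inhibitors, NFKBIA and NFKBIE fell and NFKBIB did not pass the test. NFKBIA encodes IkB-alpha, the inhibitor that is degraded and resynthesised fastest (ENSG00000100906, chr14:35401511-35404749, minus strand). It had 83.2, 92.3 and 87.5 FPKM in Q63E libraries, against 138, 122 and 144 FPKM in VEC libraries. No Q63E library reached the lowest VEC library. The mean was 87.6 ± 4.54 FPKM in Q63E and 134.7 ± 11.4 FPKM in VEC (SD, n = 3 each), with a log2 difference of −0.61 (SE 0.071, adjusted p = 0.00180, limma) that passed in each of the 15 alternative settings (adjusted p 0.00101 to 0.0156).

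NFKBIA was the most abundant of the 10 transcripts in VEC, above RELA, whereas in Q63E RELA led and NFKBIA overlapped with NFKB2. The NFKBIA level was 0.879, 0.900 and 0.859 times that of RELA in Q63E libraries, against 1.24, 1.08 and 1.26 times in VEC libraries. The groups did not overlap in this ratio.

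NFKBIE, which encodes IkB-epsilon (ENSG00000146232, chr6:44258166-44265788, minus strand), had 5.09, 5.17 and 6.32 FPKM in Q63E libraries, against 6.98, 8.93 and 8.90 FPKM in VEC libraries. Q63E replicate 3 and VEC replicate 1 were close, at 6.32 and 6.98 FPKM. The log2 difference was −0.50 (SE 0.126, adjusted p = 0.0293, limma). The call was lost without Q63E replicate 1 or 2 (adjusted p = 0.0887 and 0.0849), without VEC replicate 2 or 3 (0.0869 and 0.0904) and with no filter on low values (0.0716).

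NFKBIB, which encodes IkB-beta (ENSG00000104825, chr19:38899700-38908893, plus strand), had 16.2, 20.3 and 18.7 FPKM in Q63E libraries, against 16.9, 19.1 and 19.6 FPKM in VEC libraries. The groups overlapped, and the log2 difference of −0.02 (SE 0.097, adjusted p = 0.928, limma) had a 95% interval of −0.25 to 0.22. This interval lies above the estimates of NFKBIA and NFKBIE, but it overlaps the 95% interval of NFKBIE (−0.81 to −0.20). Differences between these genes were not tested. SIRT2 overlaps it on the other strand by 163 bases, and had 16.1 to 18.5 FPKM in Q63E and 15.8 to 18.1 FPKM in VEC.

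NFKBIZ encodes an inducible nuclear protein, IkB-zeta, that works with NF-kB on a subset of its targets (ENSG00000144802, chr3:101827991-101861022, plus strand). It had 18.9, 22.9 and 19.3 FPKM in Q63E libraries, against 29.4, 26.8 and 32.2 FPKM in VEC libraries. The groups were apart, and the log2 difference was −0.52 (SE 0.097, adjusted p = 0.0110, limma).

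TNFAIP3, whose product A20 removes and edits ubiquitin chains on signalling adaptors and so ends the response (ENSG00000118503, chr6:137867188-137883312, plus strand), had 46.5, 48.2 and 44.2 FPKM in Q63E libraries, against 55.8, 67.9 and 70.8 FPKM in VEC libraries. The Q63E libraries lay close together, and VEC replicate 1 was the lowest of its group. The log2 difference was −0.47 (SE 0.092, adjusted p = 0.0129, limma), and left-out libraries moved it between −0.57 (without VEC replicate 1) and −0.40 (without VEC replicate 3) with the call kept. An antisense gene, AL357060.1, overlaps TNFAIP3 by 1046 bases at 0.630 to 1.11 FPKM in Q63E and 0.790 to 1.12 FPKM in VEC.

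By level, the order in Q63E was RELA, NFKBIA, NFKB2, TNFAIP3, NFKBIZ, NFKB1, NFKBIB, RELB, NFKBIE and REL. In VEC it was NFKBIA, RELA, NFKB2, TNFAIP3, NFKB1, NFKBIZ, NFKBIB, RELB, NFKBIE and REL. Neighbours in this order whose libraries overlapped were NFKBIA with NFKB2, NFKBIZ with NFKB1 and NFKB1 with NFKBIB in Q63E, and NFKB1 with NFKBIZ and NFKBIB with RELB in VEC. RELB and NFKBIB, alike in VEC at 17.1 and 18.6 FPKM, were therefore apart in Q63E at 9.21 and 18.4 FPKM.

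The protein-coding genes whose profiles over the 6 libraries were most like those of RELB, NFKBIA and TNFAIP3 were sought by the root mean square difference of the log2 deviations from the VEC mean. For RELB they were TSPO (0.0271), ITGA2 (0.0467) and COL4A5 (0.05). For NFKBIA they were MCUB (0.0342), CDKN2D (0.0417) and IL10RB (0.0437), and for TNFAIP3 they were IL4R (0.0404), TFAP2C (0.0457) and ZSWIM4 (0.0475). MCUB is also among the neighbours of NFKB1 described above, at 7.06 Mb. All of these libraries are shared, and a likeness of this kind includes the difference between the groups: TSPO, with the smallest distance to RELB, had 199, 214 and 197 FPKM in Q63E libraries, against 367, 340 and 366 FPKM in VEC libraries.

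Of 13 genes of ligands that act upstream of the IkB kinases, 5 could be tested, with 3 lower and 1 higher. Over all genes tested 14.0% were lower and 11.3% higher, and 5 genes are a small base. IL1B had 94.0, 116 and 86.8 FPKM in Q63E libraries, against 291, 262 and 299 FPKM in VEC libraries (log2 difference −1.52, adjusted p = 0.000361, limma). TNF had 4.62, 6.76 and 4.65 FPKM in Q63E libraries, against 9.47, 14.0 and 14.6 FPKM in VEC libraries (log2 difference −1.11, adjusted p = 0.00891, limma), and IL1A fell by 0.62 on the log2 scale (adjusted p = 0.0115). In every library of either group IL1B was thus well above TNF in level. IL18 was higher, at 52.5, 54.7 and 59.8 FPKM in Q63E libraries, against 36.0, 37.6 and 37.5 FPKM in VEC libraries (log2 difference 0.57, adjusted p = 0.00101, limma). LTA, LTB, IL33, CD40LG and 4 TNFSF ligands were below the minimum mean.

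The 17 receptor genes were those of the TNF receptor and IL-1 receptor families, IL17RA and the Toll-like receptors. Of these 8 could be tested, with 4 lower and 0 higher, beside 14.0% lower and 11.3% higher over all genes tested. The 6 Toll-like receptor genes were below the minimum mean. CD40, which feeds both arms, had 29.4, 29.8 and 30.4 FPKM in Q63E libraries, against 45.3, 42.2 and 45.5 FPKM in VEC libraries (log2 difference −0.56, adjusted p = 0.000571, limma). IL1R1, IL1RAP and TNFRSF12A had log2 differences of −0.63, −0.31 and −0.20 (adjusted p = 0.0315, 0.0423 and 0.0417). The calls of IL1R1 and IL1RAP were lost when any library but Q63E replicate 1 was left out, and that of TNFRSF12A when any library was. The adjusted p was up to 0.0893 for IL1R1 (without VEC replicate 1), 0.123 for IL1RAP (without VEC replicate 3) and 0.119 for TNFRSF12A (without Q63E replicate 1). After subtraction of its neighbourhood median, which differed by −0.20, the log2 difference of IL1RAP was −0.11 (adjusted p = 0.474). TNFRSF1A, the main TNF receptor, did not pass (log2 difference −0.18, adjusted p = 0.0780), and it is named after its value was seen.

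Of 11 IkB kinases and activators, 2 were lower, 1 was higher and the median log2 difference was −0.03, a count near the 14.0% lower and 11.3% higher over all genes tested. TAB1, an activator of the kinase TAK1, had 13.7, 13.2 and 13.4 FPKM in Q63E libraries, against 21.5, 25.01 and 22.6 FPKM in VEC libraries, and IKBKE, an IkB kinase-related kinase, had 7.84, 8.28 and 8.84 FPKM in Q63E libraries, against 12.3, 12.7 and 13.01 FPKM in VEC libraries. Their log2 differences were −0.73 (adjusted p = 0.000788, limma) and −0.56 (adjusted p = 0.00228), and that of TAB1 was −0.35 after subtraction of its neighbourhood median (adjusted p = 0.0155). MAP3K14, the kinase NIK of the non-canonical arm, was higher (log2 difference 0.36, adjusted p = 0.0165), with the call lost without Q63E replicate 1 or 3 or VEC replicate 2 (adjusted p up to 0.0585) and after subtraction of its neighbourhood median (log2 difference 0.24, adjusted p = 0.0849). The core kinase genes CHUK, IKBKB and IKBKG did not pass (adjusted p = 0.403, 0.0605 and 0.922); they too are named after their values were seen.

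Of 15 adaptors and ubiquitin ligases 2 were lower and 2 higher, with a median of −0.04, which is also near the 14.0% and 11.3% of all genes tested. BIRC3 and TRAF3, which both restrain NIK, had log2 differences of −0.49 and −0.38 (adjusted p = 0.0158 and 0.0170, limma). BIRC3 lost its call without Q63E replicate 1 or 3 or VEC replicate 3 (adjusted p up to 0.0525), and TRAF3 without Q63E replicate 2 or 3 (up to 0.0551). Both lost it with the replicate number as a block (0.0596 and 0.0561). SQSTM1 and IRAK1 were higher by 0.22 and 0.20 (adjusted p = 0.0190 and 0.0366), and neither call held in all settings: leaving out single libraries gave an adjusted p of up to 0.0582 for SQSTM1 (without VEC replicate 3) and 0.103 for IRAK1 (without VEC replicate 3).

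Of 13 tested partners of A20, linear ubiquitin factors and deubiquitinases, 3 were lower and 2 higher, with a median of −0.12, beside 14.0% lower and 11.3% higher over all genes tested. ZC3H12A, a ribonuclease that degrades inflammatory messenger RNAs and is itself NF-kB induced, had 12.4, 13 and 10.7 FPKM in Q63E libraries, against 20.2, 23.98 and 25.4 FPKM in VEC libraries (log2 difference −0.89, adjusted p = 0.00206, limma). TNIP1, a binding partner of A20, fell by 0.30 on the log2 scale (adjusted p = 0.00260). TNIP2, which lies, like NFKB1, on chromosome 4, fell by 0.49 (adjusted p = 0.00152). After subtraction of its neighbourhood median, which differed by −0.50, the log2 difference of TNIP2 was 0.01 (adjusted p = 0.911). RBCK1, a subunit of the linear ubiquitin ligase, had 104, 98.4 and 95.5 FPKM in Q63E libraries, against 81.0, 68.2 and 74.5 FPKM in VEC libraries (log2 difference 0.41, adjusted p = 0.00717, limma). TAX1BP1, an adaptor of A20, was the other higher gene (log2 difference 0.19, adjusted p = 0.0218). Its call was lost in 7 of the 15 alternative settings, among them without Q63E replicate 2 or 3 or VEC replicate 2 or 3 (adjusted p up to 0.0717), with the replicate number as a block (0.0819) and after subtraction of its neighbourhood median (log2 difference 0.11, adjusted p = 0.142). Of 6 atypical IkB and related proteins NKIRAS2 alone passed, with a log2 difference of −0.24 (adjusted p = 0.0478) and with the call lost when any library but Q63E replicate 2 was left out (adjusted p up to 0.133, without VEC replicate 3).

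**Figure D4:**
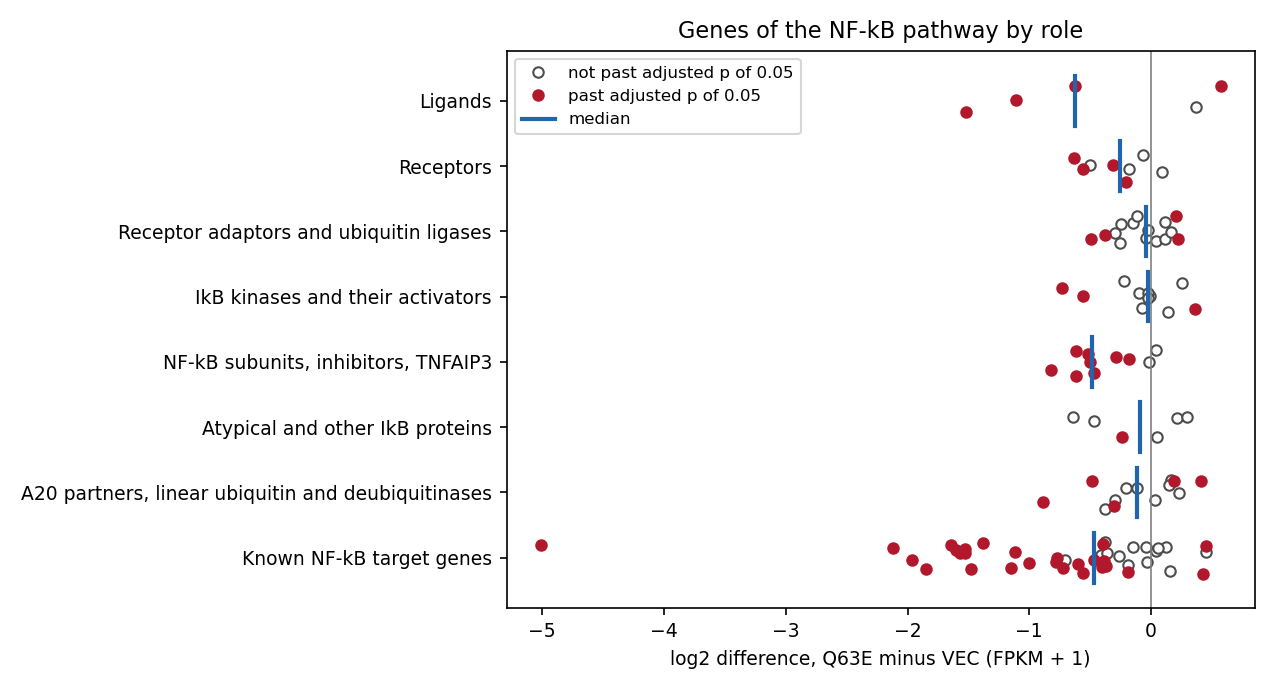
Log2 difference (Q63E minus VEC, FPKM + 1) of the tested genes of the pathway by role, with points spread vertically for legibility. Filled points passed an adjusted p of 0.05 and blue bars are medians, which lie at −0.62 for 5 ligands, −0.49 for the 10 subunits, inhibitors and TNFAIP3, −0.47 for 41 target genes and between −0.26 and −0.03 for the other 5 lists.

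Downstream, 50 known NF-kB target genes were listed with earlier results of these data known. Of the 50, 49 were analysed here and 41 tested. Of the 41 tested, 25 were lower and 2 higher, with a median log2 difference of −0.47, beside 14.0% lower and 11.3% higher over all genes tested. The largest falls were in CXCL6, CXCL1, CXCL8 and CXCL3, which lie, like NFKB1, on chromosome 4. The median of the genes within 10 Mb of them differed by −0.41 between the groups. After subtraction of their neighbourhood medians they kept log2 differences of −4.61, −1.72, −1.56 and −1.44. CXCL2 and CXCL5, also among the lower targets, lie in the same neighbourhood of chromosome 4, so the 25 include genes that are neighbours. Outside that chromosome, and named after their values were seen, PTX3, a secreted pattern recognition protein, had 21.0, 24.7 and 22.3 FPKM in Q63E libraries, against 70.1, 64.7 and 72.8 FPKM in VEC libraries (log2 difference −1.57, adjusted p = 7.52e-05, limma). CSF2, a growth factor for myeloid cells, had 17.6, 18.1 and 15.2 FPKM in Q63E libraries, against 51.4, 48.2 and 66.5 FPKM in VEC libraries (log2 difference −1.64, adjusted p = 0.000447, limma). The higher genes were the phosphatase gene DUSP1 (log2 difference 0.45, adjusted p = 0.000741) and PLAU, the urokinase gene (0.43, adjusted p = 0.00320). With neighbourhood medians subtracted 23 target genes were lower and 4 higher.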

How the data were processed

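Each of the 6 deposited tables, 1 for each library, has 58882 rows, of which 58233 carried Ensembl identifiers and 649 were loci with no gene name. The deposited values are taken as FPKM, although no header or label names the unit; per the submitters' processing notes HISAT2 2.1.0, Bowtie2 and GRCh38.p10 were used, and the counting program is not given in the sources used here. Whole reads could not be recovered: at best 25.2% to 27.3% of low values per library lay within 0.1 of a whole number. Symbols came from a gene table matching 57392 identifiers, positions from GENCODE release 29 (GRCh38). Values were tested as log2(FPKM + 1) for genes with a mean of at least 1 (limma 3.58.1, R 4.3.3, lmFit and eBayes with trend, two-sided, Benjamini-Hochberg adjustment over 13346 genes, threshold 0.05). Only this limma fit was run on simulated data, not the alternative settings or the other steps. Differences understate those of low genes, and linear ratios are ratios of mean FPKM. Neighbourhood medians are, per library, the median log2 deviation from the VEC mean of the other tested genes within 10 Mb. Named list genes are, per list, up to 4 past the threshold with the largest difference. The genes, lists and the neighbourhood setting were chosen with earlier results of these data known. Same-numbered libraries did not deviate together (r = −0.0419 to −0.00870).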

Additional observations from a re-analysis of the deposited data

How the results depend on the processing

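The count of the 10 genes lower in Q63E was 6 to 8 over the 15 alternative settings, and 0 were higher in each. Without single libraries it was 6 to 8, and 7 with the replicate number as a block, with quantile normalization, with no trend, with no filter and with neighbourhood medians subtracted. RELB, NFKBIA, NFKB2, NFKBIZ and TNFAIP3 passed in all 15 settings. REL changed sign without single libraries (−0.064 to 0.12 on the log2 scale) and with neighbourhood medians subtracted (−0.083), and so did NFKBIB (−0.086 to 0.068, and 0.076), both near 0 in each setting. RHOA was higher in the main fit (log2 difference 0.28, adjusted p = 0.00206, limma). With the neighbourhood medians subtracted RHOA was at −0.067 (adjusted p = 0.223, limma) and TNIP2 at 0.011. Target genes higher in Q63E numbered 2, against 4 with quantile normalization or neighbourhood medians subtracted and 2 or 3 in the other settings; target genes lower numbered 20 to 25. Over all genes 942 were higher and 1266 lower with the replicate block, beside 1510 and 1873 without it, and 994 to 1153 were higher without single libraries, with 994 without Q63E replicate 3. The labels give the groups the same replicate numbers, but these share only a number. REL was not tested at a mean of at least 5. A count test was not run, since depth is unknown.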
